A study of Mus musculus with 2 samples.

Results

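Zona pellucida and oocyte secreted factors are the genes whose products build the egg coat or carry signals to and from the oocyte. They were taken here as Zp1, Zp2, Zp3, Gdf9, Bmp15, Oosp1 and Kit. Every probe set whose single gene symbol in the annotation of the array platform is one of these was used, which gave 10 probe sets for 7 genes, out of 34945 single-symbol probe sets for 18193 genes on the array. Kit is the exception in the group, since it encodes a receptor on the oocyte surface and not a secreted protein.

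The study compared ovaries of mice at 2 days of age with and without conditional over-activation of hedgehog signalling. The control pool came from mice of genotype Amhr2(+/+)-SmoM2, and the mutant pool from mice of genotype Amhr2(cre/+)-SmoM2. Both groups therefore carried SmoM2, an activated form of the hedgehog signal transducer Smoothened, and the mutant also had Cre at 1 of its Amhr2 copies. Amhr2, the gene of the receptor for anti-Müllerian hormone, is expressed in somatic cells of the gonad. The cells in which Cre acted were not measured here. Equal amounts of RNA from 8 mice were combined into 1 pool per genotype, and each pool was hybridised to 1 array. Cre, the altered Amhr2 copy and SmoM2 activation cannot be told apart in this comparison. With 1 array per group the differences have no replicate check, and no p-value was computed.

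The zona pellucida is the glycoprotein coat of the egg, and in the mouse it is assembled from ZP1, ZP2 and ZP3, which the oocyte makes and secretes as it starts to grow. GDF9 and BMP15 are related members of the TGF-beta family that the oocyte releases to act on the surrounding granulosa cells. KIT passes in the other direction, as the oocyte receives through it the Kit ligand made by granulosa cells. In the newborn mouse ovary the oocytes are being enclosed in primordial follicles and the earliest of them begin to grow. The helix-loop-helix factor FIGLA acts on E-boxes of the zona genes, and NOBOX and LHX8 are homeodomain factors needed for the expression of many oocyte genes.

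The promoters of Zp3, Oosp1 and Kit are shown because these genes had a promoter sequence and were measured and lower in the mutant pool. For Kit this holds for its brighter probe set. Zp1, Zp2 and Gdf9 were also measured and lower, but no promoter sequence was available for them. Each sequence holds the 250 bases before the RefSeq transcription start (GRCm38.p6), read 5′ to 3′ on the strand of the gene. They lie at chr5:135979855-135980104 on the + strand, chr19:11691052-11691301 on the - strand and chr5:75574737-75574986 on the + strand. Capitals mark matches to the E-box CANNTG, to the NOBOX element TAATTG or to the LHX8 element TGATTG on either strand.
Zp3 promoter: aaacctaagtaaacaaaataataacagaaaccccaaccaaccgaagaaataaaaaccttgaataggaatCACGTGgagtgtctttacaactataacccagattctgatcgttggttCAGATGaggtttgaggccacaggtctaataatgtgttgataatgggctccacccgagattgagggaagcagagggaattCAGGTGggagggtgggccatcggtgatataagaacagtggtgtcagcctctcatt
Oosp1 promoter: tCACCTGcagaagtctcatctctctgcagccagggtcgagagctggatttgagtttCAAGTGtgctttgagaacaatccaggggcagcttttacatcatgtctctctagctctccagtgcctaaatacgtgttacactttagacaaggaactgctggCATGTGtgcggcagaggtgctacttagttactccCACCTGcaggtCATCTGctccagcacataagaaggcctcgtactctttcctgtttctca
Kit promoter: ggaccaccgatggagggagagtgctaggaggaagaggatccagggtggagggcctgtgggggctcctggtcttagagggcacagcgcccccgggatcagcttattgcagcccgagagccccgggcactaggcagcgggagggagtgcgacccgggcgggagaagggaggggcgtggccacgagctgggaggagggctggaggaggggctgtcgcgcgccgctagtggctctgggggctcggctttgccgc

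All capitals in these 3 sequences are E-boxes. The Zp3 promoter held CACGTG at 181 to 176 bases, CAGATG at 134 to 129 bases and CAGGTG at 55 to 50 bases before the start. The Oosp1 promoter held 5 E-boxes, the nearest of them CATCTG at 48 to 43 bases before the start. None was found in the Kit promoter. The table also held the promoter of Bmp15, with 1 E-box and 1 match to TGATTG. An E-box was thus present in 3 of 4 promoters, against 66.2% of all 32851 promoter windows of the same length, and TAATTG was in 0 of the 4 against 7.17%. TGATTG was in 1 of the 4 against 12.7%. The matches did not overlap each other. They describe the letters of these windows and not binding by a factor.

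Of the 7 genes, 6 were measured, and all 6 had lower signals in the mutant pool, by 22.4% to 32.7%. A gene was taken as measured if at least 1 of its 2 signals reached 80.7, the median of all values on both arrays, and all 6 reached it on both arrays. Log2 ratios of mutant to control were computed with 22.2 added to both signals, which understates the change of dim genes. The 6 ratios lay between -0.56 and -0.36, with a median of -0.42, while the median of all 12308 measured genes was -0.02. A ratio under 0 was found in 52.5% of all measured genes.

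The decrease was modest for each gene. Of the 6 genes, 0 differed by 1.5-fold or more in either direction, a size that was passed downward and upward by 7.90% and 9.32% of all measured genes. A difference of 2-fold was passed downward by 1.40% and upward by 3.21% of the measured genes. The SD between probe sets of the same gene, the only spread these arrays give, was 0.38 on the log2 ratio over 13386 measured probe sets, and 0.26 over the 2054 probe sets that, like their partners, had a mean signal of at least 1317. Zp1, Zp3, Oosp1 and Kit differed from 0 by more than 0.38, and Zp2 and Gdf9 by slightly less. All 6 differed from 0 by more than 0.26, though the mean signals of Zp1 and Oosp1 were under 1317. Both SDs come from 1 pair of arrays and hold no variation between animals, pools or arrays. They therefore cannot tell which of the 6 differences is beyond error. With 1 probe set per gene, the SD among the ratios of the 6 genes was 0.08. That value leaves out the dimmer Kit probe set, at 0.13. It is a spread between genes and so not a like measure to the SDs within genes.

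**Figure D1:**
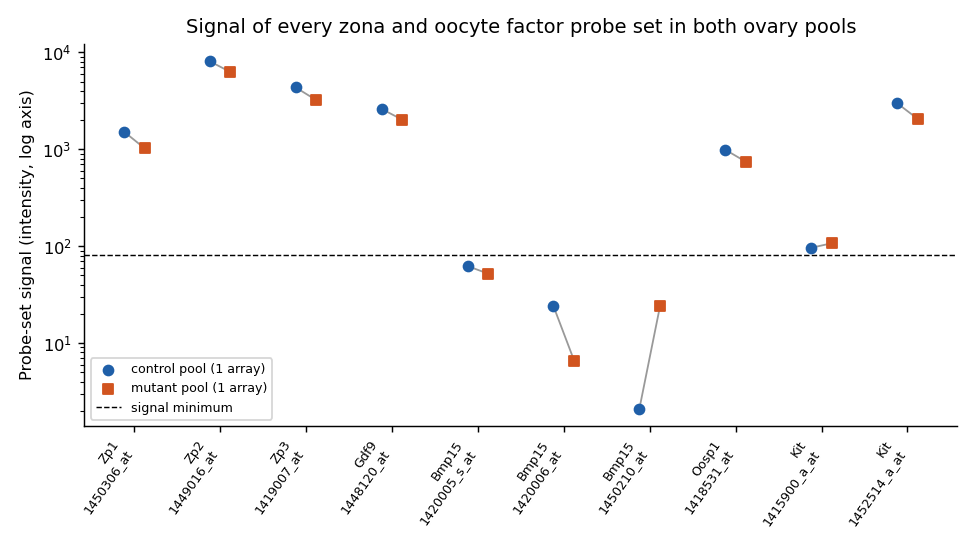
Signal intensity (log axis) of each of the 10 probe sets in the control pool (circles) and the mutant pool (squares), 1 array each, with the signal minimum of 80.7 as a dashed line. The bright probe set of every measured gene is lower in the mutant pool, the 3 Bmp15 probe sets are under the minimum, and the dim Kit probe set is slightly higher in the mutant pool (107.2 against 96.2).

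The 3 genes of the egg coat were all lower in the mutant pool. Zp1 (Entrez gene 22786), whose product cross-links the filaments of the coat, gave a signal of 1521.6 in control and 1024.2 in mutant ovaries. Its log2 ratio of -0.56 was the lowest of the 6, and 8.65% of all measured genes had a ratio at or below it. Zp2 (22787), which encodes the coat protein that sperm bind and that is cleaved after fertilisation, gave a signal of 8079.1 in control and 6266.7 in mutant ovaries. This log2 ratio of -0.37 was among the smallest decreases of the group, and 18.1% of the measured genes were at or below it. Zp3 (22788), which pairs with ZP2 as a main filament subunit, gave a signal of 4340.8 in control and 3211.1 in mutant ovaries. The Zp3 log2 ratio was -0.43, and 14.2% of the measured genes were at or below it. Zp1 was thus 32.7% lower, Zp3 26.0% and Zp2 22.4%, and the gap between the largest and the smallest of these log2 ratios was smaller than the probe-set SD of 0.38. Each of the 3 genes had 1 probe set, so no second probe set could be set beside it.

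Among the secreted growth factors only Gdf9 was measured. Gdf9 (Entrez gene 14566), which is needed for follicles to grow past the primary stage, gave a signal of 2605.3 in control and 2018.1 in mutant ovaries. The log2 ratio was -0.36, and the Gdf9 signal was 22.5% lower in the mutant pool, almost the same difference as for Zp2. Bmp15, its X-linked relative, was under the signal minimum on all 3 of its probe sets. They read 62.3, 24.0 and 2.1 in control ovaries and, in the same order, 52.0, 6.6 and 24.0 in mutant ovaries. The highest and middle values of the control pool had lower counterparts in the mutant pool and the lowest had a higher one, so the probe sets of Bmp15 gave no common direction, and no fold is given for signals under the minimum. With no signal minimum, Bmp15 would count by its brightest probe set as a 7th gene with a log2 ratio under 0, at -0.19.

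Oosp1 (170834), which encodes a small secreted protein made by the oocyte, gave a signal of 989.2 in control and 741.8 in mutant ovaries. Its log2 ratio was -0.40, and 15.6% of the measured genes were at or below it. It thus lay between Zp3 and Gdf9. The related genes Oosp2 and Oosp3, named after their values were seen, had smaller differences. Oosp2 read 457.4 in control and 402.6 in mutant ovaries, and Oosp3 166.2 and 151.0.

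Kit (16590), the receptor for Kit ligand, gave 2 different answers. The brighter probe set gave a signal of 2987.7 in control and 2055.4 in mutant ovaries, a log2 ratio of -0.53, with 9.68% of the measured genes at or below it. The dimmer probe set had 96.2 in control and 107.2 in mutant ovaries, a log2 ratio of 0.13. The latter lay just above the signal minimum. With the mean over both probe sets in place of the brighter one, the log2 ratio of Kit was -0.20.

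**Figure D2:**
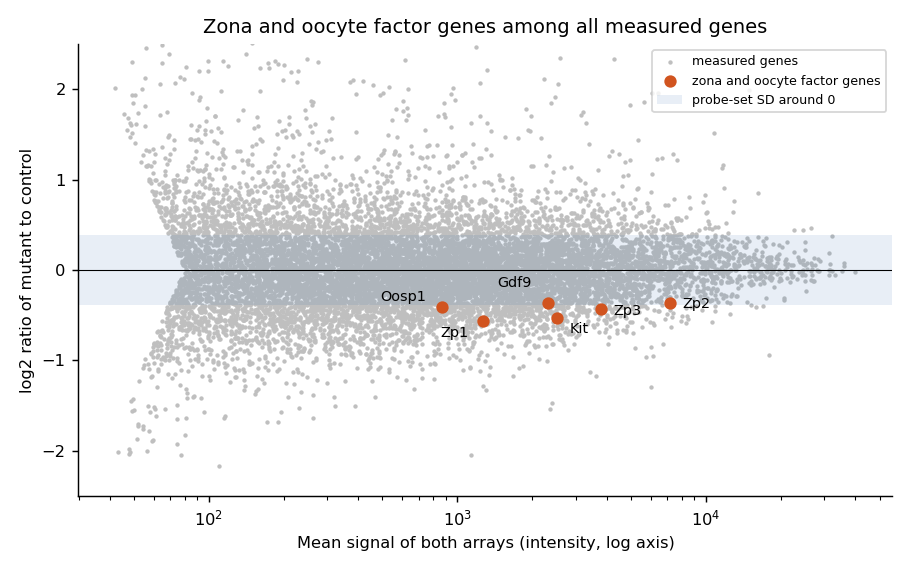
Log2 ratio of mutant to control against the mean signal of both arrays (log axis) for the 12308 measured genes (grey) and the 6 measured zona and oocyte factor genes (orange); the band is 0 plus or minus the probe-set SD of 0.38. The 6 genes, with Kit shown by its brighter probe set only, lie between -0.56 and -0.36 at mean signals from 866 to 7173. Outside the axis are 38 genes above a log2 ratio of 2.5.

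The list of oocyte transcription factors had a lower median than the 6 genes. Of 8 listed factors all were measured, and 7 had ratios under 0, with a median log2 ratio of -0.72. At least 1.5-fold lower were 5 of the 8, against 7.90% of all measured genes. The exception was Gata4, named after its values were seen and known mainly from somatic cells of the gonad, with a log2 ratio of 0.41. Figla, which drives the zona genes, gave a signal of 7590.6 in control and 3888.5 in mutant ovaries, a log2 ratio of -0.96, beside -0.56, -0.37 and -0.43 for Zp1, Zp2 and Zp3. Nobox, a regulator of Gdf9, was 2987.1 in control and 1876.7 in mutant ovaries, a log2 ratio of -0.66. Sohlh1, a helix-loop-helix factor that early oocytes need, was 876.6 in control and 365.9 in mutant ovaries. Of the 8 factors, 5 had a lower ratio than each of Zp1, Zp3, Oosp1 and Kit, and 6 had a lower ratio than Zp2 and Gdf9. Whether the factors and the 6 genes differ beyond error could not be tested with 1 array per group.

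General germ cell markers gave the same direction. All 12 were measured and had ratios under 0, with a median log2 ratio of -0.66. At least 1.5-fold lower were 6 of the 12, against 7.90% of all measured genes. The summed signal of the 12 markers was 79954 in control and 58734 in mutant ovaries. Ddx4, the germ cell RNA helicase, was 3322.2 in control and 1943.5 in mutant ovaries, a log2 ratio of -0.77. Dazl, a germ cell RNA-binding protein, had log2 ratios of -0.58 and -1.45 on its 2 probe sets. Uchl1 and Stk31 had the lowest ratios of the list, at -1.13 each. The median of the 6 zona and oocyte factor genes lay 0.24 above that of the germ cell markers on the log2 scale. That gap was smaller than the probe-set SD of 0.38. It was near the low end of the range over all settings, 0.24 to 0.35. Of the 12 markers, 7 to 10 had lower ratios than any given one of the 6. The summed signals differed less, since that of the 6 genes was 20524 in control and 15317 in mutant ovaries, a mutant to control ratio of 0.746 beside 0.735 for the germ cell markers. Dppa3 (23007.2 in control, 18320.9 in mutant) and Gtsf1 (22844.6 and 18450.5) weighed most in the germ cell sum. They were the brightest of the 12 markers and had the smallest decreases, with log2 ratios of -0.33 and -0.31. A second Gtsf1 probe set had -0.73. The near-equal sums thus do not show that the 2 lists fell alike. With the pregranulosa markers, which were also all measured, the germ cell markers mark the samples as ovary. Equal amounts of RNA were pooled and both arrays had the same trimmed mean, so each signal is relative to the total RNA. In whole ovaries, fewer oocytes, less RNA per oocyte and a larger share of RNA from other cells cannot be told apart.

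**Figure D3:**
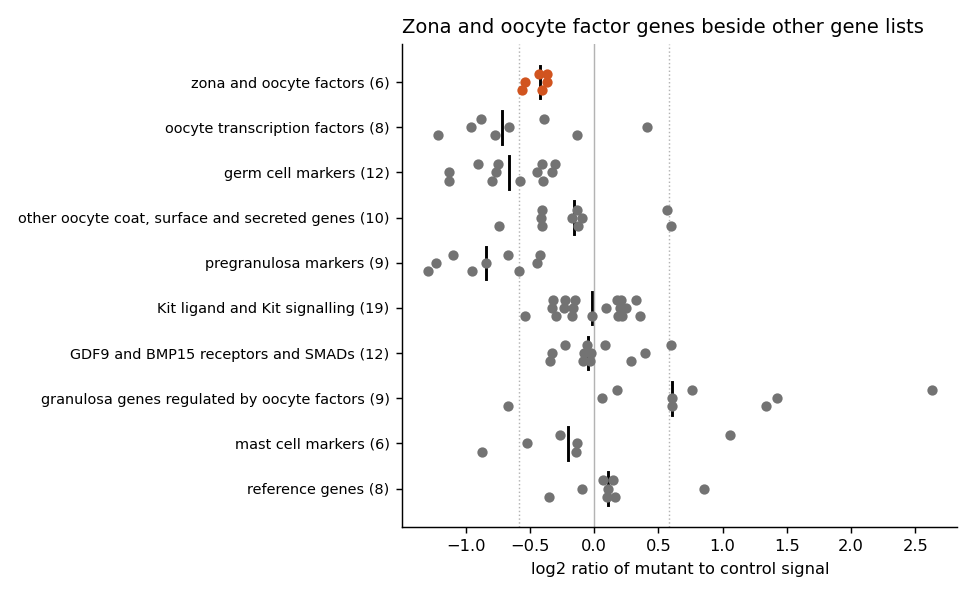
Log2 ratio of mutant to control of each measured gene (points, 1 probe set per gene) in the 6 zona and oocyte factor genes (orange) and in 9 other lists (grey), with the number measured in brackets; black bars are medians, and dotted lines mark 1.5-fold. The orange points, with Kit shown by its brighter probe set only, are packed between -0.56 and -0.36. Oocyte transcription factors spread from -1.21 to 0.41, and Gata4 is the only one of them over 0.

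The list of other oocyte coat, surface and secreted genes also held proteases that somatic cells make. Of its 12 genes, 10 were measured, with a median log2 ratio of -0.15 and 8 ratios under 0. In each direction 1 gene passed 1.5-fold, against 7.90% of all measured genes downward and 9.32% upward. Astl, which encodes ovastacin, the protease that cleaves ZP2 after fertilisation, was 1707.3 in control and 1014.5 in mutant ovaries, a log2 ratio of -0.74. Adamts1, a secreted metalloprotease that granulosa cells make as well, was 1464.9 in control and 2229.5 in mutant ovaries. The other gene over 0, named after its values were seen, was the proprotein convertase Pcsk5, with a log2 ratio of 0.57. The dimmer measured probe sets of Pcsk5 had 0.23 and -0.08.

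On the receiving side of GDF9 and BMP15, receptors and SMAD mediators had ratios near 0 as a list. Of 13 listed genes 12 were measured, with a median log2 ratio of -0.04. None was lower by 1.5-fold, and the 1 gene higher by that much was Smad1, at 3718.0 in control and 5636.5 in mutant ovaries. A second measured Smad1 probe set had a log2 ratio of 0.28, and the count of higher genes was 0 with reference gene scaling, with quantile normalization, with probe sets averaged and without shared probe sets. Smad7, an inhibitory SMAD, had a log2 ratio of 0.40. Granulosa genes that oocyte factors are known to regulate were mostly higher, with a median log2 ratio of 0.61 over 9 measured of 12 and 6 genes at least 1.5-fold higher, a size passed upward by 9.32% of all measured genes. The count and the median were smaller with stricter minimums. With both values required to reach the minimum, 3 genes were higher, with a median of 0.39. With the minimum at the 75th percentile 2 were, with a median of 0.18. Ptx3, a pentraxin of the cumulus matrix, was 37.0 in control and 344.7 in mutant ovaries, or at least 4.27-fold higher when the dim value is set to the signal minimum. Inhba, the activin subunit, was 47.0 in control and 163.8 in mutant ovaries, or at least 2.03-fold higher by the same bound. Fst, the gene of follistatin, was the 1 gene of this list that was lower, with log2 ratios of -0.67 and -0.94 on its probe sets. Several of these genes are also expressed in stromal cells, and the cells that gave these signals were not measured.

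The ligand of KIT had log2 ratios on both sides of 0. Kitl was 12947.7 in control and 14626.8 in mutant ovaries on its brightest probe set, a log2 ratio of 0.18, and its other measured probe sets had -0.20 and -0.24. The list of Kit ligand and signalling genes had 19 of 21 members measured, with a median log2 ratio of -0.02. Of the 19, 0 were 1.5-fold lower or higher, against 7.90% and 9.32% of all measured genes. Foxo3, the forkhead factor that holds primordial oocytes dormant downstream of KIT, had the largest difference, at 8128.4 in control and 5590.5 in mutant ovaries, a log2 ratio of -0.54, but its second measured probe set had -0.17. Cdkn1b, a cell cycle inhibitor, had a log2 ratio of 0.35.

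Kit is also known from mast cells, melanocytes and steroid-producing cells of the gonad. Of 8 mast cell markers 6 were measured, and none was at 0. Their median log2 ratio was -0.20 and their summed signal was 1995.4 in control and 1784.8 in mutant ovaries. Hdc, which makes histamine, was higher (392.0 against 176.6), and the mast cell protease Cma1 was lower (139.3 against 273.4). Of 7 melanocyte markers 2 were measured, with a summed signal of 879.5 in control and 713.9 in mutant ovaries. Dct, Tyr, Tyrp1, Mlana and Sox10 were under the signal minimum on both arrays. Pmel was 86.2 in control and 28.7 in mutant ovaries, and Mitf had a log2 ratio of -0.21. Theca and steroidogenic markers were higher, with 6 of 8 measured and a summed signal of 9415.7 in control and 53090.8 in mutant ovaries. By log2 ratio the highest of them were Cyp17a1 and Cyp11a1, both under the signal minimum in control ovaries (38.8 and 29.6). With the dim value set to the minimum they were at least 93.3-fold and 70.6-fold higher. A second measured Cyp11a1 probe set, near the minimum at 70.9 in control and 89.3 in mutant ovaries, had a log2 ratio of 0.26. The part of these cell types in the Kit signal was not tested.

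Pregranulosa markers, which belong to the somatic cells around the oocyte, were lower too. All 9 were measured with ratios under 0 and a median log2 ratio of -0.84. At least 1.5-fold lower were 7 of the 9, against 7.90% of all measured genes. The summed signal of the 9 markers was 28012 in control and 14682 in mutant ovaries. Amhr2 and Lgr5 had the lowest ratios, -1.30 and -1.23, and the other measured probe sets of Amhr2 had -1.26 and -0.26. For Amhr2 the Cre-bearing copy in the mutant and a change in its cells cannot be told apart. The median of the 6 zona and oocyte factor genes lay 0.43 above that of the pregranulosa list. Reference genes had a median log2 ratio of 0.11 over 8 measured of 10, with 0.86 for B2m and -0.35 for Actb. The second probe sets of these genes differed, with 0.13 for B2m and 0.36 for Actb. The signal ratio between 3′ and 5′ probe sets, a measure of RNA integrity and labelling, was 8.48 in control and 10.5 in mutant ovaries for Actb, and 3.28 and 4.98 for Gapdh. Its part in these ratios was not tested.

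**Figure D4:**
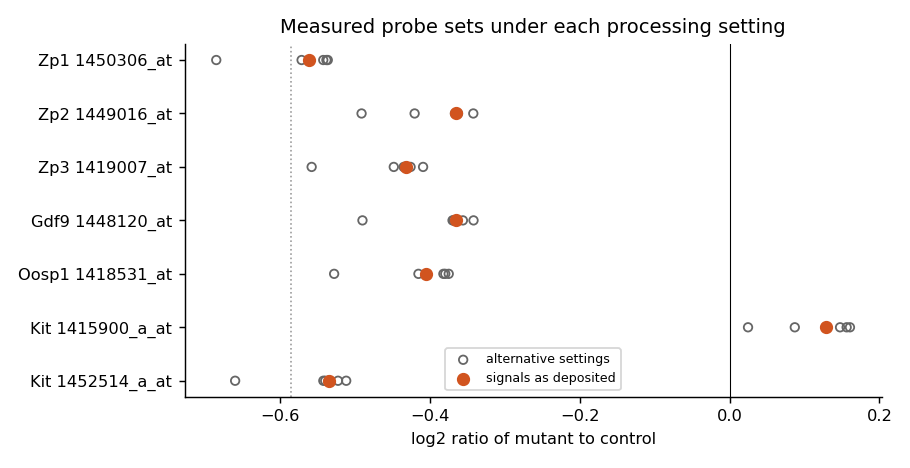
Log2 ratio of mutant to control for the 7 measured probe sets, with signals as deposited (filled points) and under the alternative settings (open circles); the dotted line marks 1.5-fold lower. The 6 bright probe sets stay between -0.69 and -0.34, and the dim Kit probe set stays between 0.02 and 0.16.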

How the data were processed

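RNA pools of control and mutant ovaries were each measured on 1 Affymetrix array. The authors deposited linear probe-set signal intensities, and GCOS is the software named in the submitters' processing notes. Trimmed by 2% at either end, the array means were both 500.003. Signals were used as deposited, with no further background correction. Gene names came from the platform annotation, in which 932 probe sets have several symbols and were not named. A gene was measured when its higher signal reached 80.7, and its brightest measured probe set stood for it. Ratios were taken as log2 with a pseudocount of 22.2, the 25th percentile over both arrays. Python 3.11.15, numpy 2.4.6 and pandas 2.3.3 were used, and the ratio code was tested on simulated data. The number of arrays limits precision. The genes and the 11 lists were chosen with earlier results of these data known. All zona and oocyte factor genes are named, with Figla, Nobox, Kitl, Foxo3, Ddx4 and Dazl, and up to 2 measured genes of each list by absolute log2 ratio. Fst, Gata4, Pcsk5, Oosp2, Oosp3, Dppa3, Gtsf1 and the dim melanocyte markers were named after their values were seen. Promoters are from RefSeq, with 4 of 7 genes matched (not Zp1, Zp2 or Gdf9). Of 10 other settings tried, 1, scaling by reference genes, was chosen after seeing the data.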

Additional observations from a re-analysis of the deposited data

How the results depend on the processing

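No paired analysis was possible because each group holds 1 array. The 6 measured zona and oocyte factor genes kept log2 ratios under 0 in each of the 10 alternatives that gave them a value, with medians from -0.54 to -0.39. Without probe sets shared between transcripts Kit had no value, and 5 genes were left. The count of 1.5-fold lower genes among them was 0, except with arrays scaled by the reference genes (chosen after seeing the data), where it was 2. That scaling moved the median of all measured genes from -0.02 to -0.15 and raised the shares of measured genes lower by 1.5-fold and 2-fold to 12.5% and 2.34%; there 1 Kit signalling gene and 2 mast cell markers were lower, and 0 GDF9 pathway genes and 0 other coat genes higher, by 1.5-fold. With the pseudocount at the median, 4.96% of measured genes were 1.5-fold lower, 0.390% 2-fold lower and 2.01% 2-fold higher, and 0 other coat genes were higher. With both values at the signal minimum, 0.742% were 2-fold lower and 1.96% 2-fold higher, 3 granulosa genes were higher, 0 melanocyte markers were lower (median -0.21), and the steroidogenic median was 2.17. With the minimum at the 75th percentile, 0.626% were 2-fold lower, the granulosa median was 0.18 with 2 genes higher, 0 mast cell markers passed in either direction, and 0 melanocyte markers were lower (median -0.21). With no minimum, 2.43% were 2-fold lower, 2 GDF9 pathway genes and 2 melanocyte markers were higher, 2 mast cell markers were lower, and the melanocyte median was -0.21. With dim values raised to the minimum, 2 mast cell and 0 melanocyte markers were lower (melanocyte median -0.15). Quantile normalization gave 1 lower Kit signalling gene and 0 higher GDF9 pathway genes, and centring gave 2 higher other coat genes. Averaging probe sets, or leaving out shared ones, gave 0 higher GDF9 pathway and 0 higher reference genes; leaving them out also gave 0 mast cell markers in either direction and a steroidogenic median of 3.99. The cause of these moves was not tested. A median counted as moved beyond the probe-set SD of 0.38, and a count or share beyond 1.5 times. Signals near 80.7, such as those of Bmp15 and the dimmer Kit probe set, limit what can be read from them.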
